A study of Mus musculus with 4 samples.

Results

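The genes described here carry the symbols of cytosolic translation initiation and elongation factors, and were measured in mouse CD8+ T cells. They are the rows of the deposited expression table whose symbol begins with Eif1 to Eif6 or with Eef1 or Eef2, that are annotated as protein-coding, and whose mean level over the libraries is at least 1 FPKM (fragments per kilobase of exon, scaled to library size, so a level corrected for gene length and depth). Of 65 protein-coding rows with such a symbol, 61 met the level, out of 9810 genes of any kind that did. Eif5a2 lay just inside it at 1.21 FPKM and Eef2k, the kinase that inhibits eEF2, just outside at 0.652 FPKM. The symbols also took in genes of kinases, inhibitors and methyltransferases that act on the factors, and the synthetase scaffold gene Eef1e1. All 61 are called members or translation factors below. The RNA came from CD8+ T cells that had entered B16-GP33 tumours, a mouse melanoma line carrying a viral T cell epitope, and was taken at day 21. The comparison was between 2 libraries of the genotype labelled EV, taken as the control, and 2 libraries of the genotype labelled ACSS2NLS. The enzyme ACSS2 turns acetate into acetyl-CoA, and the letters NLS commonly stand for a nuclear localisation signal. No group had raised ACSS2 without those letters in its label, and the sources used here give neither the strain, sex and age of the mice nor whether the libraries of a group came from separate mice. The p-values are therefore measured against the spread of these 4 samples alone. The libraries of a group were not repeats of one RNA, since Y-linked RNA was present in replicate 1 and listed at 0 in replicate 2 of each.

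Translation begins when eIF2, carrying GTP and the initiator tRNA, joins the small ribosomal subunit together with eIF1, eIF1A, eIF3 and eIF5. The eIF4F complex, made of the cap-binding protein eIF4E, the scaffold eIF4G and the helicase eIF4A, brings the capped mRNA, and 4E-BP proteins block eIF4E until mTORC1 phosphorylates them. Stress kinases phosphorylate eIF2 and so hold back its guanine nucleotide exchange factor, eIF2B. Once the subunits have joined, eEF1A delivers aminoacyl-tRNA, the eEF1B subunits recharge it with GTP, and eEF2 moves the ribosome along. Activated T cells are known to raise this machinery as they grow, and several of its mRNAs begin with a run of pyrimidines (a 5′ terminal oligopyrimidine or TOP tract) that ties their translation to mTORC1.

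Each library held 46000000 to 49300000 tags, and sense tags over exons made up 39.6% to 41.9% of them. Acss2 was at 3.66 and 3.92 FPKM in EV against 80.7 and 86.3 FPKM in ACSS2NLS. The summed level of 8 CD8+ T cell markers was 2260 and 1866 FPKM in EV replicates 1 and 2 and 2097 and 1636 FPKM in ACSS2NLS replicates 1 and 2, with 1 of the 8 higher in mean in ACSS2NLS and none at 0 in any library. Markers of other cells differed between the libraries. The sum of 16 myeloid markers was 252.5 and 1174 FPKM in EV against 571 and 1727 FPKM in ACSS2NLS, and 13 of the 16 had a higher mean in ACSS2NLS. The sum of 9 melanoma markers was 7.62 and 46.2 FPKM in EV against 13.8 and 180 FPKM in ACSS2NLS, with all 7 tested ones higher in mean. Of these, 1 myeloid marker and no melanoma marker was at 0 in at least 1 library, and both sums were higher in replicate 2 than in replicate 1 of each group. The sums of 5 B cell markers and of 7 stromal and endothelial markers were low, at 1.58 to 3.15 FPKM and at 8.61 to 16.9 FPKM. Their part in the results below was not tested.

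The translation factors differed little between the groups, and no member passed the test, which was run without a replicate block. The smallest adjusted p among the 61 was 0.75 (limma-trend on log2(FPKM + 1), two-sided, Benjamini-Hochberg over all 9810 genes), where 0.0204% of all genes tested passed upward and 0.0% downward. At an unadjusted p under 0.05, 3 members were higher in ACSS2NLS and 0 lower, against 3.1% and 2.87% of all genes. A higher mean in ACSS2NLS was seen for 42 of the 61 members, or 68.9%, against 53.2% of all genes tested. Both ACSS2NLS libraries lay above both EV libraries for 19 members, where 19.3% of all genes did so, and below both for 10 members, where 18.1% of all genes did so. The median log2 change (ACSS2NLS mean minus EV mean of log2(FPKM + 1)) was 0.075 for the members and 0.015 for all genes tested. Changes were small, with 44 members within 0.2 on that scale in either direction, 12 at or above it and 5 at or below -0.2. In bulk RNA, fewer cells of a type and less RNA per cell cannot be told apart. With any one library left out, 37 to 43 members had a higher mean. Of the 44 members named with values by rule, 13 turned direction in that way, 24 kept it but moved by over 1.5 times, and 7 (Eef1b2, Eef1e1, Eef1g, Eif2d, Eif3i, Eif3m and Eif4e) did neither.

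Genes of different abundance did not shift alike, so the members were also set beside genes of the same level. Among genes at 1 to 5 FPKM, 7 of 9 members and 60.9% of all genes had a higher mean in ACSS2NLS. At 5 to 20 FPKM it was 15 of 19 members and 52.4% of all genes. At 20 to 50 FPKM it was 12 of 16 members and 41.8% of all genes. At 50 FPKM and over it was 8 of 17 members and 39.9% of all genes, and the members' median log2 change there was -0.0048. The share of members with a higher mean was thus alike below 50 FPKM and lower above it. The replicates of the members were also closer than those of all genes tested, in a comparison that was not matched for level. Members had a median absolute log2 difference of 0.10 within EV and 0.14 within ACSS2NLS, where all genes had 0.14 and 0.20. The median level was 21.1 FPKM for the members and 7.43 FPKM for all genes tested.

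**Figure D1:**
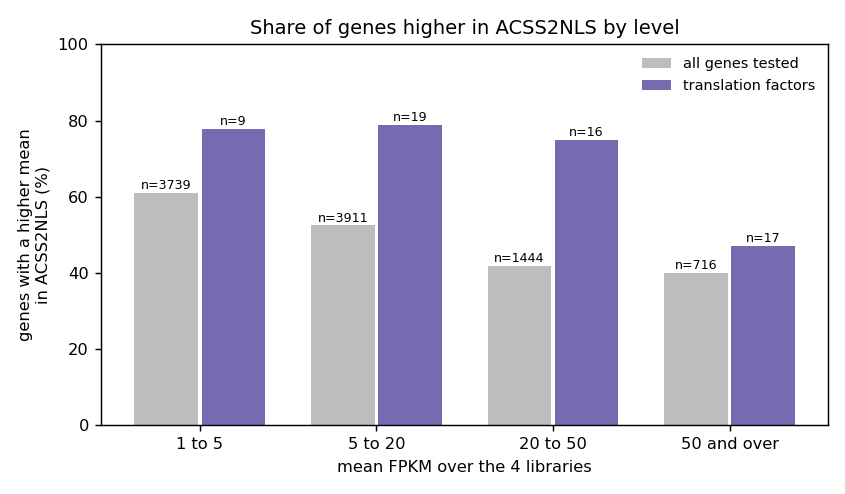
Percentage of genes with a higher mean log2(FPKM + 1) in ACSS2NLS than in EV (vertical axis, from 0) for 4 bands of mean FPKM (horizontal axis), with grey bars for all 9810 genes tested, purple bars for the 61 translation factors and the number of genes above each bar. The share of all genes declines from 60.9% to 39.9% with level, and that of the members stays between 75% and 78.9% in the lower 3 bands and is 47.1% in the highest.

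The genes with elongation factor symbols had the highest median change of the role groups. All 6, which include the synthetase scaffold gene Eef1e1, were higher in mean in the ACSS2NLS libraries, their median log2 change being 0.26, and in 5 of them both ACSS2NLS libraries lay above both EV libraries, as for 19.3% of all genes. The median of the other 5 without Eef1e1 was 0.25, and 4 of them had no overlap. None of the 6 passed the limma test. The median of the 6 was 0.24 to 0.27 whichever library was left out.

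Eef1e1 (NM_025380; mm10 chromosome 13, minus strand) encodes AIMP3, a scaffold protein of the multi-tRNA synthetase complex that also resembles eEF1B subunits. It stood at 14.3 and 15.5 FPKM in EV against 23.8 and 22.7 FPKM in ACSS2NLS. The groups were well separated, at 14.9 ± 0.816 and 23.2 ± 0.827 FPKM (SD, n = 2), a 1.56-fold difference in mean FPKM. Its log2 change of 0.61 ± 0.11 (SE, n = 2 per group) was the highest of all members and had an unadjusted limma p of 0.00227, with an adjusted p of 0.75. An absolute log2 change of at least 0.5 was seen for 5.26% of all genes tested, and among the members for Eef1e1 alone.

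The eEF1B exchange factor showed a like direction in each of its subunits. Eef1b2, its alpha subunit, was at 26.2 and 27.0 FPKM in EV against 34.9 and 31.3 FPKM in ACSS2NLS (log2 change 0.31 ± 0.11). Eef1g, the structural gamma subunit, was at 17.1 and 16.0 FPKM in EV against 20.3 and 20.1 FPKM in ACSS2NLS (0.27 ± 0.11). Eef1d, the delta subunit, was at 36.5 and 39.4 FPKM in EV against 44.3 and 41.2 FPKM in ACSS2NLS (0.17 ± 0.11). The groups did not overlap for any of these subunits, where 19.3% of all genes tested were higher without overlap. These subunits are among the elongation factor genes already counted above. Eef1b2 had an unadjusted p under 0.05 while Eef1g and Eef1d did not.

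Eef1a1, which delivers aminoacyl-tRNA to the ribosome, had the second highest mean FPKM of the members. It was at 244.9 and 266.6 FPKM in EV against 281 and 329 FPKM in ACSS2NLS (log2 change 0.25 ± 0.16), with no overlap. The change was 0.14 without ACSS2NLS replicate 2 and 0.37 without ACSS2NLS replicate 1. Eef2, the translocation factor, behaved otherwise, at 148 and 159 FPKM in EV against 140.4 and 175 FPKM in ACSS2NLS (0.03 ± 0.16). Its lowest and its highest library were both ACSS2NLS. The tissue-restricted paralog Eef1a2 was listed at 0 in all 4 libraries. Eef2k, below the level of the rule, was at 0.460 and 0.595 FPKM in EV against 0.633 and 0.921 FPKM in ACSS2NLS. Of the methyltransferases that modify elongation factors, Eef1akmt1, which acts on eEF1A, was at 17.9 and 19.3 FPKM in EV against 24.96 and 19.74 FPKM in ACSS2NLS (0.24 ± 0.15), the difference lying mostly in ACSS2NLS replicate 1. Eef2kmt, which acts on eEF2, was at 4.76 and 4.45 FPKM in EV against 4.57 and 4.96 FPKM in ACSS2NLS (0.04 ± 0.14), with overlapping groups.

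**Figure D2:**
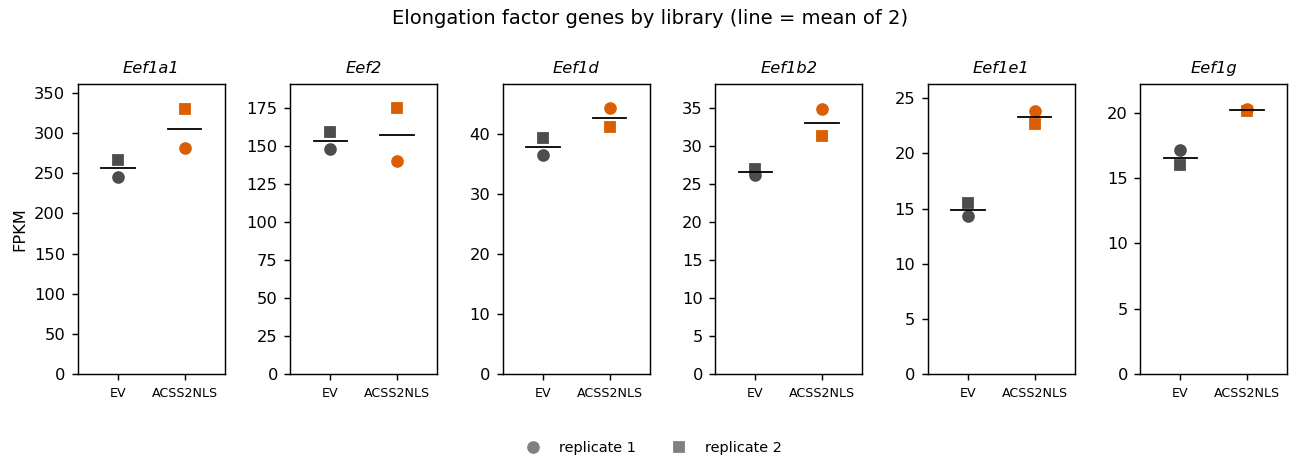
FPKM (vertical axes, each from 0) of 6 elongation factor genes in the 2 EV libraries (grey) and the 2 ACSS2NLS libraries (orange), with circles for replicate 1, squares for replicate 2 and a line at each group's mean. Eef1e1 goes from 14.3 and 15.5 to 23.8 and 22.7 FPKM, while the ACSS2NLS libraries of Eef2 lie on either side of the EV libraries.

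Members whose mRNAs are known to start with a TOP tract were Eef1a1, Eef1b2, Eef1d, Eef1g, Eef2, Eif3e, Eif3f, Eif3h and Eif4b. The mean of all 9 was higher in the ACSS2NLS libraries (median log2 change 0.18), against 33 of the 52 other members, whose median was 0.062. For 5 of the 9 both ACSS2NLS libraries lay above both EV libraries, where 14 of the 52 other members and 19.3% of all genes tested did so. The count includes 4 of the elongation factors described above with no overlap, so it is not a separate observation. The median was 0.14 to 0.22 with a library left out. Eef1a1, Eef1b2, Eef1d, Eef1g, Eef2, Eif3e and Eif3h also have near-identical annotated copies elsewhere, while Eif3f and Eif4b do not. Members with such a copy had a higher mean in 16 of 20 cases, against 26 of 41 without one. The parts of the TOP tract and of the copies were not tested. The RefSeq promoter table for GRCm38.p6, the build that mm10 names, has entries for 47 of the 61 members, and 5 of the 9 are among them. Their start regions are shown so that the pyrimidine runs near the annotated starts can be seen beside these values. Each line gives 30 bases, 5′ to 3′ on the strand of the gene, and capitals mark the longest run of C and T between 20 bases before and 50 bases after the annotated start. The windows are chr9:78481710-78481739 (minus strand) for Eef1a1, chr1:63176850-63176879 for Eef1b2, chr10:81176634-81176663 for Eef2, chr7:108934403-108934432 for Eif3f and chr15:102073753-102073782 for Eif4b, the last 4 on the plus strand. A sixth line gives Eef1e1, the member with the highest change, at chr13:38659000-38659029 on the minus strand.
Eef1a1: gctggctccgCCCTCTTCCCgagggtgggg
Eef1b2: ttgcgtccgagcgCTTTCgttcaactccgg
Eef2: gacgtcagcggTCTCTTCCgccgcagccgc
Eif3f: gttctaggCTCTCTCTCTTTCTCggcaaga
Eif4b: gcgcaggTCTTCCCgtcggacgccgcgcca
Eef1e1: gtgcaggccccgCCTCCCTaggagctgggc
The run was 15 bases long in Eif3f and 10 in Eef1a1, in both spanning the annotated start, and it was 8 in Eef2, 7 in Eif4b and Eef1e1, and 5 in Eef1b2. Counted from the annotated start, it began at position 15 in Eef2, 33 in Eef1b2, 12 in Eef1e1 and -13 in Eif4b. The run of Eif4b thus lay wholly before the start, and those of Eef2, Eef1b2 and Eef1e1 lay after it. A run of at least 8 bases (letters C and T, on the strand of the gene) was present in 3 of the 5 TOP members shown, in 12 of the 47 members with an entry (25.5%) and in 25.4% of the 32851 promoters of the table. Annotated starts need not be the starts used in these cells, so the runs describe the annotation.

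The eIF3 complex, the scaffold that holds the small subunit and the other factors together, had 11 of 14 members with a higher mean and a median log2 change of 0.12. Both ACSS2NLS libraries lay above both EV libraries for 7 members and below both for Eif3b, against 19.3% and 18.1% of all genes. The median was 0.075 to 0.18 with any one library left out, the lowest without ACSS2NLS replicate 1. Eif3j1 and Eif3j2 are listed at nearly the same place on chromosome 2, bases 122028580 to 122053632 and 122028583 to 122053631, both on the plus strand. Each had 266 to 336 tags in the same libraries, so they are a single measurement listed under both names. Of the 7, 6 are therefore separate genes. Both rows are included in the counts of members given here.

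Eif3i, a WD-repeat subunit, was at 45.6 and 52.2 FPKM in EV against 60.6 and 61.3 FPKM in ACSS2NLS. It had the largest change of the complex (log2 change 0.32 ± 0.12, 1.25-fold in mean FPKM), an unadjusted p under 0.05 and an adjusted p of 0.81 (limma). Eif3m, a core subunit, was at 41.9 and 39.0 FPKM in EV against 48.4 and 44.5 FPKM in ACSS2NLS (0.20 ± 0.11). Eif3h was at 55.6 and 54.9 FPKM in EV against 62.2 and 58.5 FPKM in ACSS2NLS (0.12 ± 0.11), and Eif3a, the largest core subunit, at 24.8 and 25.7 FPKM in EV against 26.1 and 28.6 FPKM in ACSS2NLS (0.11 ± 0.11). For Eif3h and Eif3a the differences were about the size of their SE. Eif3e was at 34.7 and 31.0 FPKM in EV against 40.2 and 34.5 FPKM in ACSS2NLS (0.18 ± 0.13), and Eif3f at 29.1 and 31.5 FPKM in EV against 30.5 and 30.9 FPKM in ACSS2NLS (0.02 ± 0.11). Both overlapped between groups.

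Eif3b, the RNA-binding core subunit and the most abundant of the complex, went the other way. It was at 109.6 and 112.8 FPKM in EV against 93.2 and 104.3 FPKM in ACSS2NLS (log2 change -0.17 ± 0.12). Its ratio to Eif3a in FPKM was 4.43 and 4.39 in EV and 3.57 and 3.64 in ACSS2NLS, a pair picked after the values were seen. The other subunits, Eif3c, Eif3d, Eif3g, Eif3k and Eif3l, had log2 changes between -0.0094 and 0.13. Levels per length (FPKM) differed widely within the complex. Leaving out Eif3j1 and Eif3j2 at 2.51 and 2.52 FPKM, mean levels ran from 26.3 FPKM for Eif3a to 105 FPKM for Eif3b. The order was Eif3b, Eif3k, Eif3g, Eif3d, Eif3h, Eif3c, Eif3i, Eif3l, Eif3m, Eif3e, Eif3f and Eif3a. The libraries of neighbours in that order overlapped except between Eif3g and Eif3d, between Eif3l and Eif3m and between Eif3f and Eif3a.

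**Figure D3:**
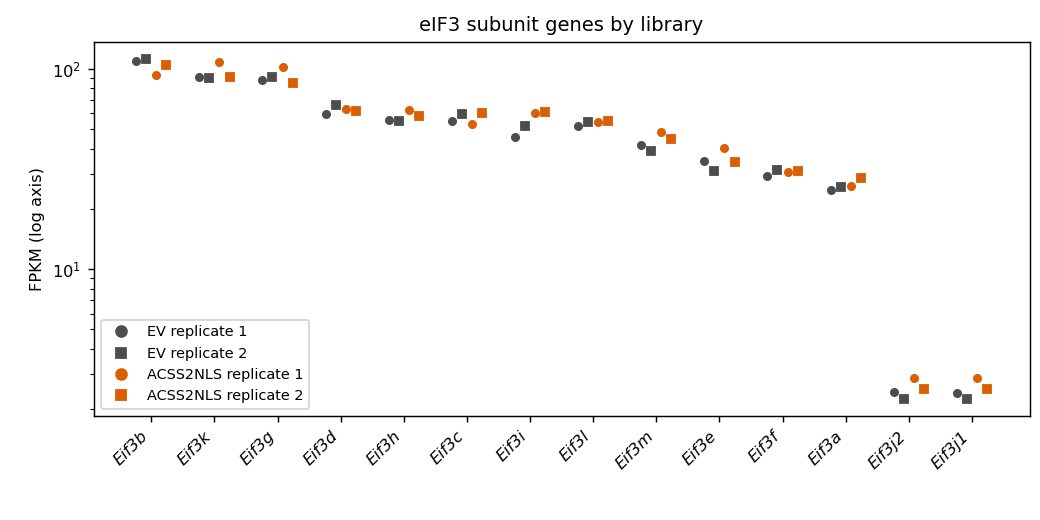
FPKM on a log axis (vertical) of the 14 eIF3 genes, ordered by mean level (horizontal), with grey for EV, orange for ACSS2NLS, circles for replicate 1 and squares for replicate 2. Levels range from 105 FPKM for Eif3b to 2.51 FPKM for Eif3j1, whose points coincide with those of Eif3j2, and the spread between genes is larger than that between libraries.

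Factors that act at the start codon or in subunit joining were divided in direction. Of 8, 5 had a higher and 3 a lower mean, and the median log2 change of 0.040 turned to -0.030 without ACSS2NLS replicate 1. Eif1, which guards start codon choice, was at 90.4 and 78.1 FPKM in EV against 79.7 and 58.4 FPKM in ACSS2NLS (log2 change -0.30 ± 0.18). The difference came mainly from ACSS2NLS replicate 2, and the log2 change was -0.077 without that library and -0.52 without ACSS2NLS replicate 1. Its paralog Eif1b was at 19.5 and 17.0 FPKM in EV against 24.1 and 20.7 FPKM in ACSS2NLS (0.28 ± 0.14). The ratio of Eif1 to Eif1b was 4.64 and 4.60 in EV and 3.30 and 2.82 in ACSS2NLS, again a pair picked after the values were seen.

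Eif1a, which helps the ribosome scan, was at 13.4 and 13.1 FPKM in EV against 14.8 and 17.0 FPKM in ACSS2NLS (log2 change 0.25 ± 0.12), with no overlap. Eif1ax, its X-linked copy, was at 48.9 and 45.1 FPKM in EV against 58.0 and 48.3 FPKM in ACSS2NLS (0.17 ± 0.14), with overlap. Eif5, which makes eIF2 hydrolyse its GTP, was at 51.0 and 41.2 FPKM in EV against 49.2 and 44.6 FPKM in ACSS2NLS (0.03 ± 0.15), so its replicates differed more than the groups. Eif5b, the GTPase of subunit joining, was at 6.18 and 6.36 FPKM in EV against 6.91 and 6.15 FPKM in ACSS2NLS (0.05 ± 0.13). Eif6, which keeps the large subunit from joining early, was at 65.1 and 61.7 FPKM in EV against 60.7 and 57.5 FPKM in ACSS2NLS (-0.10 ± 0.11). Its groups did not overlap, but the lowest EV and the highest ACSS2NLS library lay close together. Eif1ad had a log2 change of -0.0052.

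Among the eIF2 subunits, Eif2s1, the alpha subunit that stress kinases phosphorylate, was at 24.3 and 24.8 FPKM in EV against 28.7 and 26.4 FPKM in ACSS2NLS (log2 change 0.16 ± 0.11). Eif2s2, the beta subunit, was at 9.08 and 7.96 FPKM in EV against 10.4 and 8.88 FPKM in ACSS2NLS (0.16 ± 0.14). Neither had an unadjusted p under 0.05, and only Eif2s1 was without overlap. The eIF2B exchange factor showed no shared direction, with Eif2b3 and Eif2b4 higher and Eif2b1, Eif2b2 and Eif2b5 lower in mean. Eif2b5, its catalytic subunit, was at 24.9 and 24.4 FPKM in EV against 21.9 and 24.2 FPKM in ACSS2NLS (-0.10 ± 0.11). Eif2d, which can deliver tRNA without GTP, had the lowest log2 change of this group, at 23.6 and 22.3 FPKM in EV against 19.7 FPKM in both ACSS2NLS libraries (-0.21 ± 0.11, unadjusted p over 0.05). Eif2a, a separate protein and not the alpha subunit of eIF2, was at 7.08 and 6.35 FPKM in EV against 7.59 and 7.30 FPKM in ACSS2NLS (0.13 ± 0.13). The 10 genes of this group had a median of 0.097, which was -0.021 without ACSS2NLS replicate 1 and -0.011 without EV replicate 2.

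Eif2s3y, the Y-linked gene of the eIF2 gamma subunit, separated the libraries by replicate number and not by group. It was at 18.6 FPKM in EV replicate 1 and 22.4 FPKM in ACSS2NLS replicate 1, and was listed at 0 in replicate 2 of both groups, where 3 tags would be 0.0346 and 0.0353 FPKM. The other Y-linked genes Ddx3y, Kdm5d and Uty had the same pattern, with 7.08, 2.01 and 2.36 FPKM in EV replicate 1, 8.15, 2.48 and 4.23 FPKM in ACSS2NLS replicate 1, and 0 in both replicate 2 libraries. Xist, the RNA of the inactive X chromosome, showed the reverse, at 0.002 and 0.003 FPKM in the replicate 1 libraries and 2.66 and 2.69 FPKM in the replicate 2 libraries. Libraries of the same number therefore shared the presence or absence of Y-linked RNA, and each group held a library of both kinds. Eif2s3y had a log2 change of 0.13 ± 1.90, and its value without any one library ran from -2.15 to 2.40. Ddx3y, Kdm5d, Uty and Xist were chosen after the values of Eif2s3y were seen.

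The X-linked partner Eif2s3x was below the level of the rule, at 0.512 and 0.733 FPKM in EV and at 0.367 and 0.99 FPKM in the ACSS2NLS libraries. It was higher in replicate 2 than in replicate 1 of each group. A near-identical annotated pseudogene, Gm2223, shares its sequence, and the sources used here do not say how reads that match several places were counted, so the level of Eif2s3x is uncertain. The summed output of both gamma subunit genes cannot be given from these values.

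**Figure D4:**
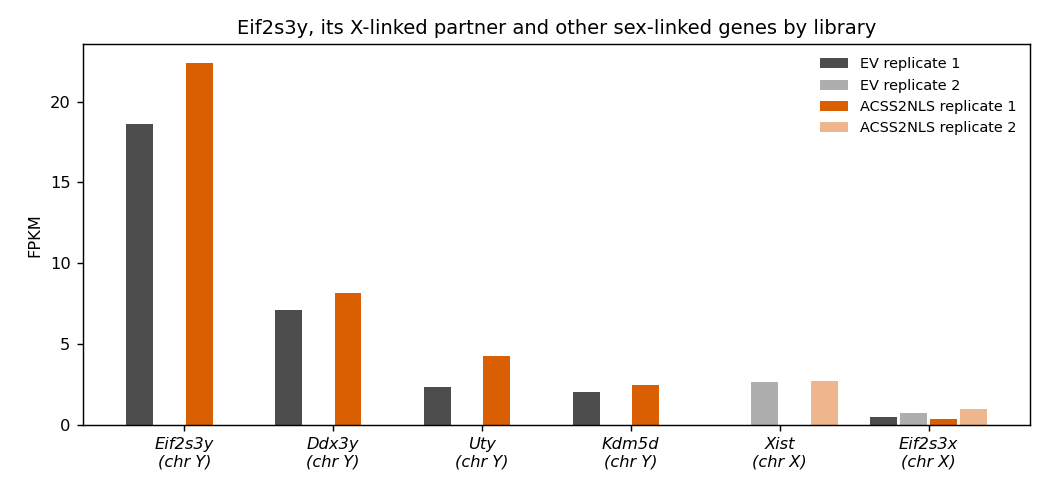
FPKM (vertical axis, from 0) of Eif2s3y, 3 other Y-linked genes, Xist and Eif2s3x in the 4 libraries (dark bars replicate 1, light bars replicate 2, grey EV, orange ACSS2NLS). The Y-linked genes are at 2.01 to 22.4 FPKM in both replicate 1 libraries and at 0 in both replicate 2 libraries, and Xist the other way round.

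The 4 kinases that phosphorylate eIF2 alpha each answer to another stress, and their genes differed in direction. Eif2ak3, which encodes PERK, the sensor of endoplasmic reticulum stress, was at 5.25 and 4.19 FPKM in EV against 3.85 and 3.10 FPKM in ACSS2NLS (log2 change -0.35 ± 0.18, the lowest of all members). Eif2ak2, which encodes the double-stranded RNA sensor PKR, was at 2.32 and 2.48 FPKM in EV against 1.63 and 2.02 FPKM in ACSS2NLS (-0.27 ± 0.17). The groups did not overlap for either, and neither had an unadjusted p under 0.05. Eif2ak4, which encodes the amino acid sensor GCN2, was at 1.54 and 2.43 FPKM in EV against 2.08 and 2.79 FPKM in ACSS2NLS (0.21 ± 0.22), higher in replicate 2 of each group. Eif2ak1, which encodes the haem-regulated kinase HRI, was the most abundant of the 4, at 17.2 and 17.6 FPKM in EV against 16.9 and 19.7 FPKM in ACSS2NLS (0.06 ± 0.12).

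The eIF4F genes and the helpers of eIF4A had 5 of 9 members with a higher mean and a median log2 change of 0.024, which was -0.064 without ACSS2NLS replicate 2 and -0.0077 without EV replicate 1. Eif4e, the cap-binding subunit, was at 7.15 and 6.84 FPKM in EV against 7.97 and 7.99 FPKM in ACSS2NLS (log2 change 0.17 ± 0.12), with no overlap. Eif4g1, the main scaffold, was at 25.6 and 32.0 FPKM in EV against 23.98 and 35.24 FPKM in ACSS2NLS (0.02 ± 0.21), so replicate 2 was above replicate 1 in both groups by more than the groups differed. Eif4b, which stimulates eIF4A, was at 13.7 and 20.6 FPKM in EV against 19.2 and 23.5 FPKM in ACSS2NLS (0.32 ± 0.22). Its mean was higher in ACSS2NLS, but EV replicate 1 was the one library set apart, and the log2 change was 0.043 without it and 0.59 without EV replicate 2.

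The helicase gene Eif4a1 was at 11.7 and 14.0 FPKM in EV against 13.7 and 18.2 FPKM in ACSS2NLS (log2 change 0.28 ± 0.18), and its paralog Eif4a2 at 16.0 and 14.2 FPKM in EV against 16.4 and 15.8 FPKM in ACSS2NLS (0.09 ± 0.12). Both overlapped between groups, and the change of Eif4a1 was 0.083 without ACSS2NLS replicate 2 and 0.48 without ACSS2NLS replicate 1. Eif4a3, which serves in the exon junction complex, was at 50.4 FPKM on average with a log2 change of -0.049. Eif4g2, a scaffold that lacks the eIF4E site, was the most abundant of these 9, at 100.2 and 95.2 FPKM in EV against 86.9 and 99.7 FPKM in ACSS2NLS (-0.07 ± 0.13). Eif4g3 and Eif4h had log2 changes of -0.081 and -0.034.

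Of the genes that restrain or resemble eIF4E, Eif4ebp1, the 4E-BP that mTORC1 inactivates, was at 15.2 and 17.2 FPKM in EV against 19.5 and 18.9 FPKM in ACSS2NLS (log2 change 0.24 ± 0.12), with no overlap. Its ratio to Eif4e in FPKM was 2.13 and 2.52 in EV and 2.45 and 2.37 in ACSS2NLS, so inhibitor and target did not differ in proportion beyond the spread of the libraries. Eif4ebp2 was at 3.18 and 3.86 FPKM in EV against 3.002 and 4.077 FPKM in ACSS2NLS (0.00051 ± 0.19), and Eif4ebp3 at 1.20 and 1.17 FPKM in EV against 1.16 and 1.61 FPKM in ACSS2NLS (0.12 ± 0.18). Eif4ebp1 was thus the main 4E-BP gene by level. Eif4e3 and Eif4e2, which encode relatives of eIF4E, were both lower in mean. Eif4e3 was at 7.96 and 6.64 FPKM in EV against 5.73 and 5.88 FPKM in ACSS2NLS (-0.28 ± 0.14), and Eif4e2 at 32.8 and 30.7 FPKM in EV against 30.3 and 26.8 FPKM in ACSS2NLS (-0.15 ± 0.12). The groups of both did not overlap, the opposite direction to Eif4e, and neither passed the test. Eif4enif1, whose product carries eIF4E into the nucleus, had a log2 change of 0.11, and Eif4e1b was listed at 0 in all 4 libraries. The median of these 6 members was 0.055, and it was -0.059 without EV replicate 1 and -0.038 without ACSS2NLS replicate 2.

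Eif5a, the hypusine-carrying factor that helps the ribosome through difficult peptide bonds, had the highest mean FPKM of the members. It was at 524 and 509.9 FPKM in EV against 505 and 472 FPKM in ACSS2NLS (log2 change -0.08 ± 0.17). Its groups did not overlap, but the difference was less than its SE. Its paralog Eif5a2 was at 1.33 and 0.977 FPKM in EV against 1.15 and 1.38 FPKM in ACSS2NLS (0.08 ± 0.18), and Eif5a exceeded it 342-fold to 522-fold within a library. Eef1a1, next below Eif5a in mean FPKM, has 9 near-identical annotated pseudogenes, and Eif5a has 1. How reads that match several places were counted is not stated, so the order of Eif5a and Eef1a1 is uncertain.

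**Figure D5:**
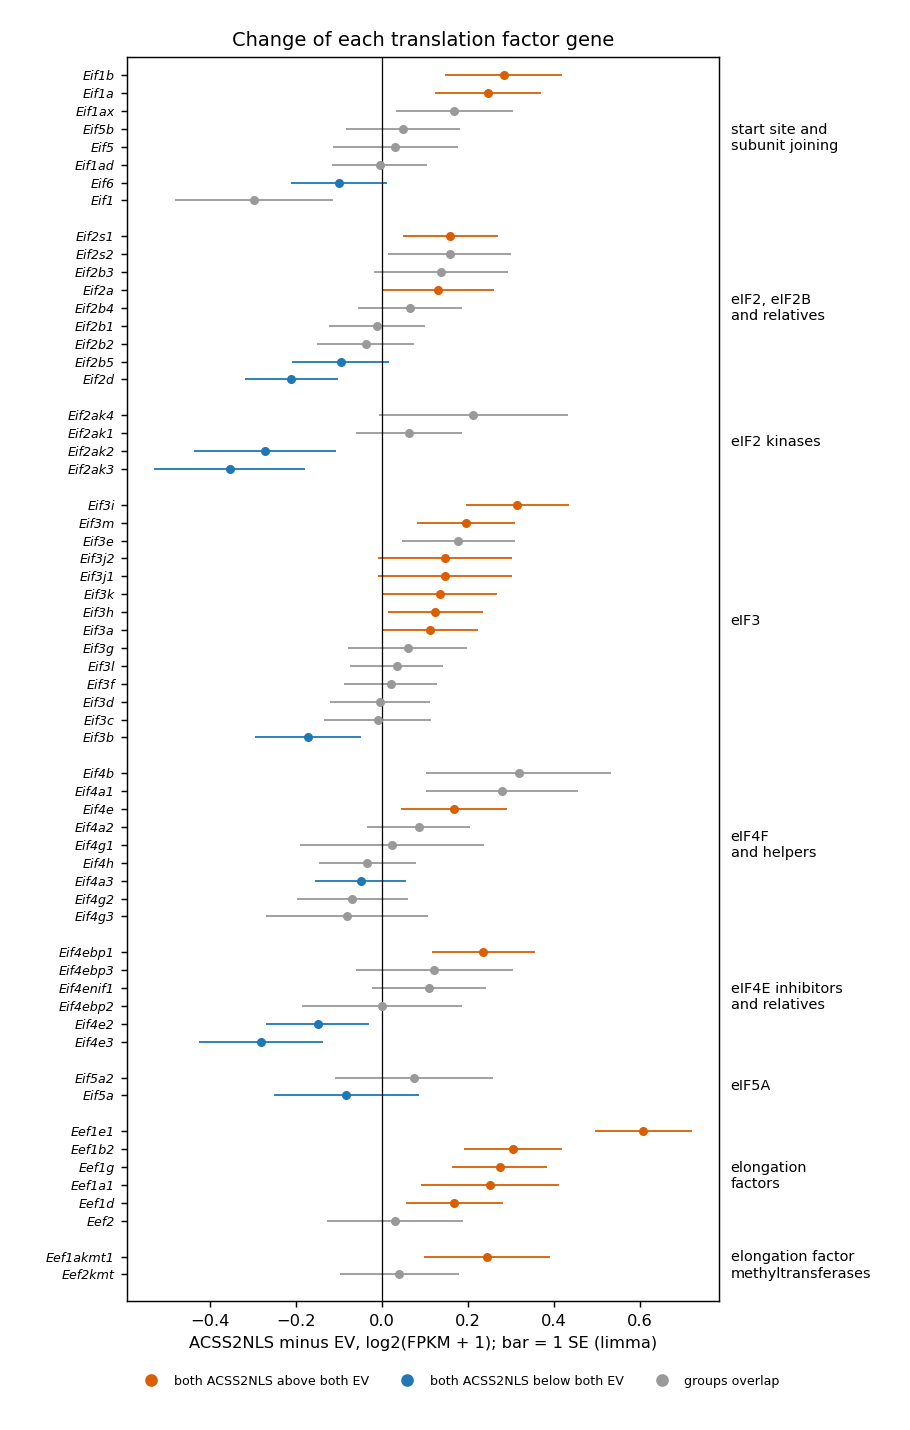
Log2 change (horizontal axis, ACSS2NLS minus EV on the log2(FPKM + 1) scale, bars 1 SE from limma) of 60 translation factor genes grouped by role, with Eif2s3y left out because its SE of 1.90 exceeds the axis. Orange and blue points are genes whose ACSS2NLS libraries both lie above (19) or below (10) both EV libraries, and Eef1e1 stands furthest to the right at 0.61.

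Many translation factor genes have processed copies in the genome, which can draw reads from the parent gene. Of the 61 members, 20 had at least 1 other gene in the GENCODE M21 annotation with a match of at least 200 bases at 95% identity or more. Eif1 had 13, Eef1a1 9, Eef1g 4, and Eif4a1 and Eif4a3 3 each, while Eef1e1, Eif3i, Eif4b and Eif2ak3 had 0. Not all matches were processed copies. For Eif1a, Eif3j1, Eif3j2, Eif4e3 and Eif4ebp3 the matching gene was not annotated as a pseudogene. Only 12 of the 13 matches of Eif1 and 1 of the 3 of Eif4a3 were pseudogenes. Of the members with any such match, 16 of 20 were higher in mean in the ACSS2NLS libraries (median log2 change 0.16), against 26 of 41 without one (median 0.041). Among the elongation factors, Eef1a1, Eef1b2, Eef1d, Eef1g and Eef2 had copies. The part of such matches in the counts was not tested, and the levels of the 20 are to that extent uncertain. Members were otherwise deeply covered, with a median of 2233 tags per library for the median member and at least 63 tags in every library for each member but Eif2s3y.

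The other genes of the pathway, from lists set by role, were also without a call, with 0 passing the limma test in either direction and 0 at an unadjusted p under 0.05. Of 8 genes of termination and ribosome recycling, 6 had a higher mean (median log2 change 0.094). Mcts1, a recycling factor, was at 27.1 ± 2.95 FPKM (SD, n = 2) in EV against 33.0 ± 5.31 FPKM in ACSS2NLS (0.27 ± 0.16). Abce1, which splits ribosomes, had a log2 change of 0.16 ± 0.12, and Hbs1l, which rescues stalled ones, -0.11 ± 0.11. Of 18 genes of mTORC1 and of cap-dependent signalling, 10 had a higher mean (median 0.0075). Rheb, the GTPase that activates mTORC1, was at 24.7 ± 2.85 FPKM (SD, n = 2) in EV against 28.5 ± 1.97 FPKM in ACSS2NLS (0.20 ± 0.13), Tsc2, its inhibitor, had -0.17 ± 0.15, and Mknk2, which phosphorylates eIF4E, -0.14 ± 0.13.

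Of 9 genes of the integrated stress response, the pathway that the eIF2 kinases start, 5 had a higher mean (median log2 change 0.073). The genes of that response with the smallest unadjusted p were Trib3, Sesn2 and Ppp1r15b, with log2 changes of 0.32 ± 0.22, -0.37 ± 0.28 and 0.25 ± 0.19. Atf4, its transcription factor, was at 53.6 and 46.6 FPKM in EV against 45.9 and 43.4 FPKM in ACSS2NLS (-0.16 ± 0.12), and was picked after its values were seen. Of 8 genes that modify eIF5A or eEF2, 5 had a higher mean (median 0.023), and Dph2, of the diphthamide pathway of eEF2, was at 4.36 ± 1.03 FPKM (SD, n = 2) in EV against 6.06 ± 0.504 FPKM in ACSS2NLS (0.41 ± 0.18). Dph6 and Dohh had -0.12 ± 0.15 and -0.075 ± 0.13. Of 22 cytosolic tRNA synthetase and scaffold genes, 14 had a higher mean (median 0.026), with Farsb at 0.23 ± 0.12, Tars at 0.16 ± 0.11 and Vars at -0.22 ± 0.17. The scaffold genes Aimp1 and Aimp2, whose products sit in the same complex as that of Eef1e1, had log2 changes of 0.13 ± 0.16 and 0.12 ± 0.11, and were picked after their values were seen.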

How the data were processed

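RNA from 4 libraries was measured, 2 per group. Tools and build named in the submitters' processing notes are STAR 2.5.3a and HOMER, with mm10. The authors deposited FPKM, and per the file headers HOMER counted sense-strand tags over exons with 1 transcript per gene. The header names 8 tag directories and the table holds 4 library columns, named Acss2WT and Acss2OE, which were read as EV and ACSS2NLS by name and replicate number.

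FPKM are not counts, so log2(FPKM + 1) was tested with limma-trend (limma 3.58.1, R 4.3.3) on the 9810 of 24537 genes whose mean reached 1 FPKM, two-sided, at an adjusted p of 0.05 over all of them. The smallest p of an exact two-sided permutation of 2 libraries against 2 is 0.333. Total tags came from the steps of low FPKM values: of values at or under 50 tags in genes 500 to 2000 bases long, 100% were whole within 0.1 tags. Copies were found with BLAST 2.17.0.

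Genes named with values were a fixed list of well-known factors, in each role group the 3 with the smallest unadjusted p and the highest and lowest in mean FPKM, and in each pathway list the 3 with the smallest unadjusted p. Values of the remaining members were added after they were seen. Members and lists were chosen with earlier results of these data known. Alternatives were pseudocounts of 0.1 and 0.5, no filter, a mean of at least 5 FPKM, quantile normalization, a replicate block, limma without a trend, and leaving out each library.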

Additional observations from a re-analysis of the deposited data

How the results depend on the processing

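Over the alternatives without a replicate block, 0 members passed in either direction. Genes called over the whole table were 2 upward and 0 downward, against 1 upward with no filter on low values and 0 to 9 downward with a library left out, the 9 without EV replicate 1. With the replicate block, which leaves a single residual degree of freedom, 229 genes passed upward and 172 downward, and 1 member, Eef1e1, passed upward (log2 change 0.61, adjusted p = 0.00652, limma). The labels do not say that the numbers pair the libraries. The deviations of same-numbered libraries from their group means correlated at 0.58 over the 9810 genes and at 0.57 over autosomal genes. The block changed no other member's call.

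With a library left out, members not overlapping numbered 27 to 32 upward and 13 to 19 downward, or 44.3% to 52.5% and 21.3% to 31.1%, where all genes had 30.9% to 43.4% and 28.6% to 39.4%. With a mean of at least 5 FPKM, which tests fewer genes, medians were 0.086 for eIF3 and -0.019 for the eIF4E inhibitors and relatives. Of the eIF2 kinases only Eif2ak1 remained (0.063), of eIF5A only Eif5a (-0.082) and of the elongation factor methyltransferases only Eef1akmt1 (0.24). With no filter the kinase gene Eef2k joined the methyltransferase genes, and the median of that enlarged group was 0.21. Under quantile normalization medians were 0.0032 for the eIF4E group and 0.31 for the elongation factors. The cause was not tested. Medians with a library left out ran from -0.14 to -0.0029 for the kinases, 0.075 to 0.18 for eIF3 and -0.059 to 0.17 for the eIF4E group. Eif4ebp2 changed sign with pseudocounts of 0.1 and 0.5 (-0.0012 and -0.00027) and quantile normalization (-0.046). With a library left out, changes spanned 0 for Eif4ebp2 (-0.17 to 0.17), Eef2 (-0.13 to 0.19), Eif2ak4 (-0.0041 to 0.43), Eif3f (-0.034 to 0.075), Eif4g1 (-0.24 to 0.29), Eif2s3y (-2.15 to 2.40), Eif5 (-0.12 to 0.18), Eif5a2 (-0.044 to 0.19), Eif4g2 (-0.17 to 0.029), Eif5b (-0.023 to 0.12), Eef2kmt (-0.0085 to 0.090), Eif2ak1 (-0.041 to 0.17) and Eif4ebp3 (-0.013 to 0.26). A library left out leaves a lone one, assumed to vary like the other group.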

Other observations

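The factors of mitochondrial translation, which run a separate bacterial-type machinery, were higher in mean in the ACSS2NLS libraries for 8 of 10 genes (median log2 change 0.13), against 53.2% of all genes tested, and 0 passed limma-trend or had an unadjusted p under 0.05. This list was chosen after the data were seen. Tufm, the mitochondrial counterpart of eEF1A, was at 3.45 and 4.14 FPKM in EV against 4.94 and 5.03 FPKM in ACSS2NLS (0.32 ± 0.15). Gfm2, a recycling factor, was at 4.85 and 5.46 FPKM in EV against 6.28 and 6.65 FPKM in ACSS2NLS (0.28 ± 0.14). For both genes the groups did not overlap. Mtif2 and Mtrf1 were lower in mean, with log2 changes of -0.084 and -0.15.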
